A study of Mus musculus with 4 samples.

Results

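The unfolded protein response and the integrated stress response were followed here through 34 genes: 14 chaperones and folding enzymes of the endoplasmic reticulum (ER), 4 genes of ER-associated degradation, 5 sensors and transducers, and 11 genes of the ATF4 pathway. The genes were chosen by their place in the pathway, with earlier results of these data known. All their probe sets were taken by gene symbol, or by gene ID where the deposited table carried an older symbol. The 34 genes were read by 67 of the 22626 probe sets on the array, and 13108 genes could be named in all. The symbol in the deposited table was the current one for 21 of them, and 13 were found through the gene ID, such as Hsp90b1, which the table writes as Tra1.

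The study measured RNA on 4 Affymetrix arrays, 1 array per group, so no difference below has a replicate error and none was tested. Primary mouse adipocytes, cultured from visceral fat, received either the vehicle DMSO or 10 µM forskolin, an activator of adenylyl cyclase that raises cyclic AMP, each for 2 hours. Whole epididymal fat pads, a white fat depot, came from mice on normal chow or from mice that had eaten a diet with 60% fat for 12 weeks. The deposited table heads both fat columns with WT and the adipocyte columns with no genotype. Strain, age, sex and the number of animals or cultures behind each array were not given in the sources used here. Values are the deposited intensities on a linear scale, and a fold is the ratio of 2 of them.

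The ER folds secreted and membrane proteins, and when unfolded proteins build up there, 3 membrane sensors respond. IRE1 (gene Ern1) splices the messenger RNA of Xbp1, ATF6 is cut to release a transcription factor, and together they raise chaperones and degradation genes. PERK (gene Eif2ak3) instead phosphorylates eIF2-alpha (gene Eif2s1), which slows translation in general while the messenger RNA of Atf4 is translated more, and ATF4 then raises genes for amino acid supply, redox balance and cell fate. Other kinases that sense amino acid shortage, heme lack or viral RNA feed into the same ATF4 arm, which is why it is called the integrated stress response.

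Short motifs that the factors of each arm are known to read were looked for in the promoters. RefSeq promoter windows of GRCm38.p6, 250 bases before to 50 bases after the start site, were found for 31 of the 34 genes; those of Hyou1, Manf and Atf6 were not. The ER stress response element, searched as CCAAT and CCACG with 9 bases between them on either strand, was in 7 of 12 chaperone windows and in 0 of 11 windows of the ATF4 pathway, against 0.137% of the 27025 genes in the table. The shorter form, ATTGG and CCACG with 1 base between them, was in the windows of Dnajb11 and Herpud1 and in 0.0444% of genes. Of the 4 degradation genes, Syvn1 held the longer form, and none of the 4 sensor windows held either. The C/EBP-ATF response element, searched as TGATGNAA on either strand, was in 4 of 11 ATF4 pathway windows and in 0 of 12 chaperone windows, against 4.51% of genes. A match is a description of the letters and not a measured binding site. The genes were chosen by their pathway, and Hspa5 is a textbook target. The shares over all genes are therefore context and not a test.

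Hspa5 encodes BiP, the main ER chaperone, and its promoter is shown because it is the textbook target of the response. The 250 bases before its start site lie at chr2:34771840-34772089 on the plus strand of GRCm38.p6. Capitals mark TGACGTG, a motif known to be read by XBP1 and ATF6 and present in 2.22% of genes, which shares its first letters with the cyclic AMP element TGACGTCA, and, nearer to the start, both parts of the ER stress response element.
Hspa5: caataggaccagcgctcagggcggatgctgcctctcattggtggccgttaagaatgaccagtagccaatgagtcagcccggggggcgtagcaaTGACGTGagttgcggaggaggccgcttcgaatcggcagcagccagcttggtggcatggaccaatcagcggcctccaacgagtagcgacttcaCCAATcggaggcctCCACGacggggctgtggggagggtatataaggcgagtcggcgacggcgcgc

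The ER stress response elements of the other chaperones are shown with 8 bases on each side, read 5′ to 3′ along the strand that carries the motif, with both parts in capitals. They lie at chr10:86705525-86705559 (plus) for Hsp90b1, which holds a further copy, chr8:84847067-84847101 (plus) for Calr, chr11:50325792-50325826 (minus) for Canx, chr12:17266483-17266517 (plus) for Pdia6, chr14:118937819-118937853 (plus) for Dnajc3 and chr15:88819512-88819546 (minus) for Creld2. The shorter form of Dnajb11 lies at chr16:22857844-22857870 (plus).
Hsp90b1: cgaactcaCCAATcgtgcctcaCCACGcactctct
Calr: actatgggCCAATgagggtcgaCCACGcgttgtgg
Canx: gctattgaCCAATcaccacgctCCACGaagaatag
Pdia6: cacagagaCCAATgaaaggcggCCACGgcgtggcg
Dnajc3: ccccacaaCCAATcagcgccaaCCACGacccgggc
Creld2: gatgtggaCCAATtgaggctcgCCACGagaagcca
Dnajb11: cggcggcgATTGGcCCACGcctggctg

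The C/EBP-ATF response elements of the ATF4 pathway are shown in the same way, with the motif in capitals. They lie at chr6:7693217-7693240 (minus) for Asns, chr2:119351041-119351064 (minus) for Chac1, chr2:152344031-152344054 (plus) for Trib3, and chr3:50443645-50443668 (plus) for Slc7a11, which holds a further copy.
Asns: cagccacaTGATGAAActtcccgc
Chac1: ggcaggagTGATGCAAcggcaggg
Trib3: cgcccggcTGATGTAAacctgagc
Slc7a11: ctgcatgaTGATGCAAattctcca

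Before the gene values, the arrays themselves are described. Array medians were 236.5 to 314.4 over all probe sets, with the high fat array the brightest, and values below each array's 10th percentile (22.1 to 26.03) were set to it before log2 was taken. The adipocyte markers Adipoq, Fabp4, Lpl, Cfd, Lipe, Pparg and Cidec were off the floor on all 4 arrays, with summed intensities of 47210 to 61374. Markers of other cells were read as well: the summed intensity of 10 macrophage markers was 5040 with vehicle, 5247 with forskolin, 15389 on normal chow and 60133 on the high fat diet. In whole fat, fewer cells of a type and less RNA per cell cannot be told apart.

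The high fat diet array had higher intensities than the chow array for most ER chaperones and lower ones for several ATF4 targets. Of the 14 chaperones and folding enzymes, 9 exceeded their chow value by 1.5-fold or more, 1 lay below it by 1.5-fold or more and 4 lay between. Of the 11 ATF4 pathway genes, 1 was higher by that rule, 5 were lower and 5 lay between. Over all 34 genes, 13 were higher and 6 lower by that rule, where 22.2% of all 12939 genes compared were higher and 17.2% lower. At 2-fold the counts were 6 higher and 2 lower, beside 12.2% and 7.43% of all genes. Of the 34 genes, 31 were at or above the all-gene median of the brighter fat array, which is called the level filter below, and Ern1, Ppp1r15a and Slc7a11 were not.

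The balance between higher and lower genes depended on how the arrays were scaled. Of all genes past 1.5-fold, 56.4% were higher on the high fat diet as deposited, 39.3% with each array centred on its median, 40.1% after quantile normalization and 42.1% with centring on the genes at the level filter. The last choice was made after seeing the data. The median difference of all genes came to 0.05 (log2) without rescaling, and that of genes at the level filter to 0.17. Under all 4 scalings, the same 8 genes were at least 1.5-fold higher (Pdia3, Pdia6, Dnajb11, Sdf2l1, Manf, Creld2, Edem1 and Ddit3) and the same 6 were at least 1.5-fold lower (Dnajb9, Trib3, Asns, Chac1, Sesn2 and Phgdh). The direction differed between scalings for Herpud1, Xbp1, Atf6, Atf4 and Ppp1r15a, and it was the same under all 4 for the other 29 genes.

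**Figure D1:**
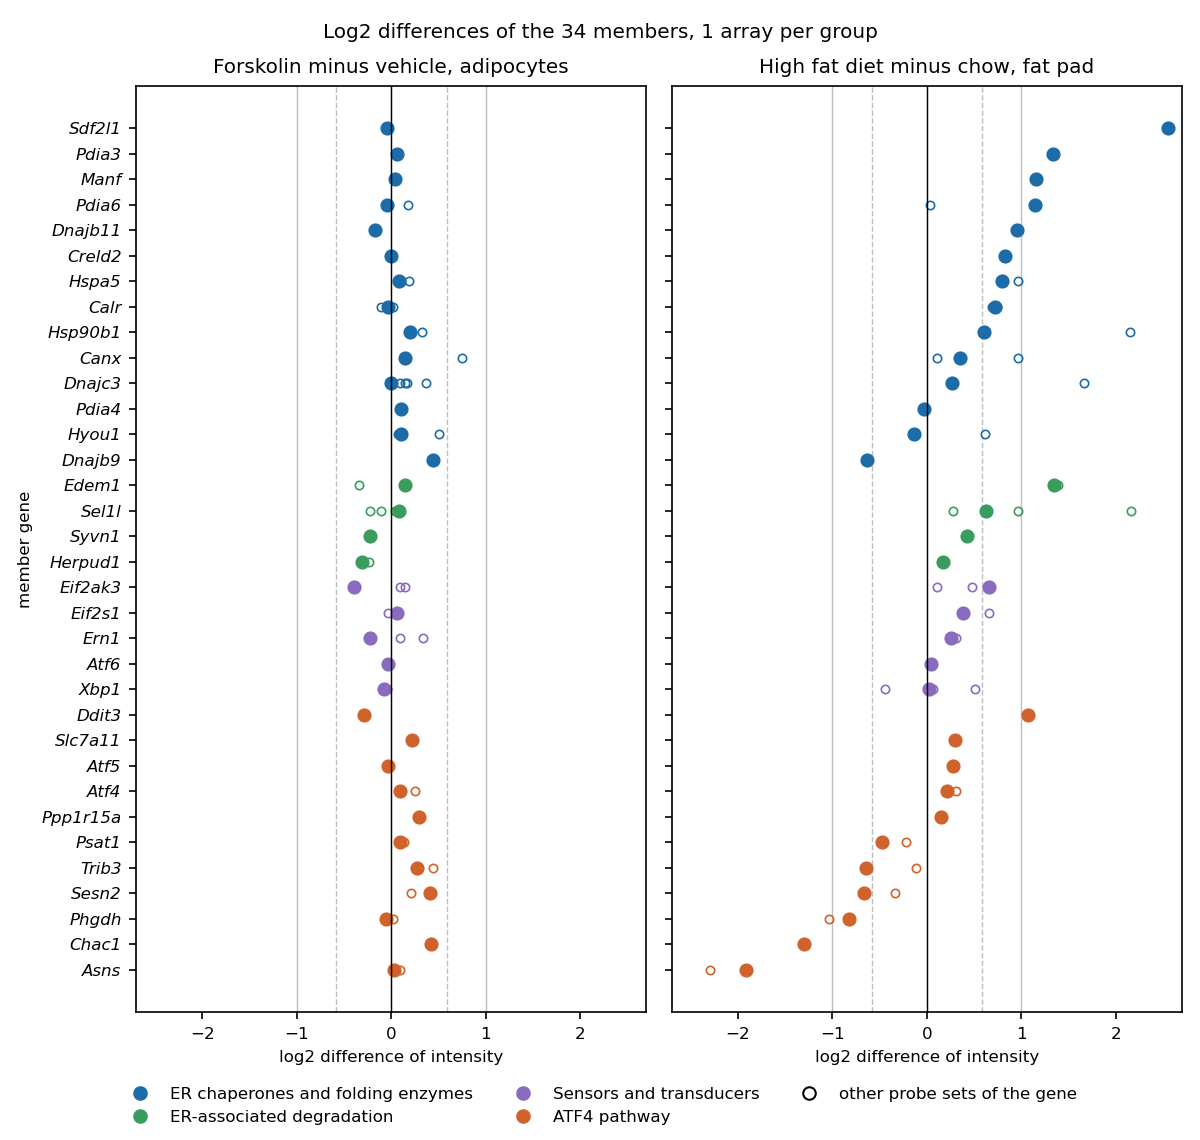
Log2 difference of intensity for each of the 34 genes, forskolin minus vehicle in adipocytes (left) and high fat diet minus chow in the fat pad (right). Filled points are the probe set standing for the gene, open points its other probe sets (those at the floor on both arrays are not drawn), and colours are the 4 groups of genes; dashed lines mark 1.5-fold and solid grey lines 2-fold. On the left all filled points lie between -0.40 and 0.44, and on the right they run from -1.91 for Asns to 2.55 for Sdf2l1.

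Among the chaperones, Sdf2l1 had the widest difference between the diets. Its product works with the BiP co-chaperone ERdj3 and keeps client proteins from aggregating. Its intensity was 804.2 with vehicle, 776.1 with forskolin, 194 on normal chow and 1132.8 on the high fat diet. Between the fat pads this was a 5.84-fold difference (2.55 on the log2 scale), while the adipocyte arrays differed by 1.04-fold. The authors' deposited table gives bounds of 4.83 and 7.3 for that 5.84-fold difference. The confidence level behind such bounds was not given in the sources used here. They come from single arrays, so they leave out the spread between animals.

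BiP itself differed less. Hspa5, at chromosome 2, 34772090 to 34776529, read 9210.1 with vehicle, 9748.2 with forskolin, 3667.2 on normal chow and 6385.4 on the high fat diet. That high fat value was 1.74-fold the chow value, and the authors' deposited table gives bounds of 1.65 and 1.84. Both adipocyte values exceeded both fat values, and they lay near the top of their arrays, whose highest intensities were 13686 and 13965. Its second probe set gave 1907.0 on normal chow and 3706.4 on the high fat diet, a ratio of 1.94.

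The genes that act beside BiP were not uniform. Dnajb11, which encodes the co-chaperone ERdj3, read 1891.0 with vehicle, 1678.6 with forskolin, 864.8 on normal chow and 1675.0 on the high fat diet, 1.94-fold higher than on chow. Dnajb9 encodes the co-chaperone ERdj4, a classical target of spliced XBP1, and went the other way: 1670.5 with vehicle, 2264.5 with forskolin, 2799.9 on normal chow and 1809 on the high fat diet, 1.55-fold lower than on chow. It was the only one of the 14 that was at least 1.5-fold lower. Dnajc3, which encodes P58IPK, a co-chaperone also known as an inhibitor of PERK, was 1.21-fold higher by the probe set used, near 1.2-fold by 3 further probe sets and 3.17-fold higher by the last. Hyou1, a nucleotide exchange factor for BiP, was 1.10-fold lower by the probe set used. A dimmer one, at the floor on chow, was at least 1.54-fold higher.

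The disulfide isomerases, which form and rearrange disulfide bonds in folding proteins, were split. Pdia3, the isomerase that works with calnexin and calreticulin on glycoproteins, read 3872.2 with vehicle, 4042.1 with forskolin, 2055.0 on normal chow and 5191.5 on the high fat diet, a 2.53-fold difference between the diets. Pdia6 read 3597.9 and 3472.3 in adipocytes, 1121.3 on normal chow and 2472.2 on the high fat diet, 2.205-fold higher, with bounds of 1.88 and 2.61 in the authors' deposited table. A second, dim Pdia6 probe set read 162.9 and 166.8 on the fat arrays and showed no such difference. Pdia4 read 1329.2 on normal chow and 1298.2 on the high fat diet, which is 1.02-fold lower. As deposited, 2 of these 3 isomerases were at least 2-fold higher with the high fat diet, beside 12.2% of all genes. Under the other 3 scalings described above, Pdia6 was between 0.84 and 0.97 on the log2 scale, Pdia3 between 0.99 and 1.17, and Pdia4 between -0.31 and -0.20.

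The lectin chaperones calreticulin and calnexin hold glycoproteins until they are folded. Calr read 5561.0 with vehicle, 5428.8 with forskolin, 3339.8 on normal chow and 5514.0 on the high fat diet, 1.65-fold higher, and its 3 probe sets gave ratios from 1.62 to 1.67. Canx was 1.27-fold higher by the probe set used, and its other 2 gave 1.08 and 1.95. The probe sets standing for Calr and Canx carry a suffix that marks possible reading of several transcripts. Hsp90b1, the ER member of the HSP90 family, read 4276.8 with vehicle, 4907.2 with forskolin, 3044.4 on normal chow and 4630.0 on the high fat diet, 1.52-fold higher. Its dimmer second probe set gave 4.45-fold, so the direction was shared and the size was not.

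The last of this group, Manf and Creld2, encode ER proteins induced by ER stress that can also be secreted. Manf read 3249.1 with vehicle, 3336.2 with forskolin, 974 on normal chow and 2175.9 on the high fat diet, a 2.23-fold difference between the diets. Creld2 read 1951.6, 1953.6, 590.3 and 1051.6 in the same order, a 1.78-fold difference. For both genes the chow array was the lowest of the 4, and the high fat array did not reach the adipocyte arrays.

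All 4 genes of ER-associated degradation, which moves misfolded proteins back to the cytosol for the proteasome, had ratios above 1 on the high fat diet, and 2 passed 1.5-fold. Edem1, a lectin that picks out misfolded glycoproteins, read 1549.6 with vehicle, 1706.9 with forskolin, 655.7 on normal chow and 1667.0 on the high fat diet, a 2.54-fold difference, and its second probe set gave 2.615. Sel1l, the adaptor of the ubiquitin ligase that marks these proteins, read 2321.7, 2451.1, 1260.7 and 1954.7 in the same order, 1.55-fold higher, and its other 3 probe sets gave 1.21, 1.95 and 4.465. The ligase itself, Syvn1, was 1.34-fold higher. Herpud1, a membrane protein of the same complex, was 1.12-fold higher as deposited, a direction that turned to slightly lower with centring or quantile normalization. Its window holds both the short ER stress element and a C/EBP-ATF element.

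The sensors and transducers differed little between the diets, with a median difference of 0.26 on the log2 scale. Xbp1 read 2895.2 with vehicle, 2734.6 with forskolin, 4591.2 on normal chow and 4664.3 on the high fat diet, so the fat arrays differed by 1.02-fold. Its other 3 probe sets ran from 1.35-fold lower to 1.42-fold higher, and splicing of its RNA is not among these measurements. Eif2ak3, which encodes PERK, was the one sensor past 1.5-fold: it read 421.6, 318.5, 402 and 636.9 in the same order, 1.58-fold higher than on chow. Its other probe sets were dim and gave 1.39-fold and, with chow at the floor, at least 1.08-fold higher. Atf6 was 1.03-fold higher and Eif2s1 1.30-fold higher. Ern1 lay below the level filter, at 84.94 on normal chow and 101.9 on the high fat diet, so its ratio of 1.2 rests on dim signals.

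**Figure D2:**
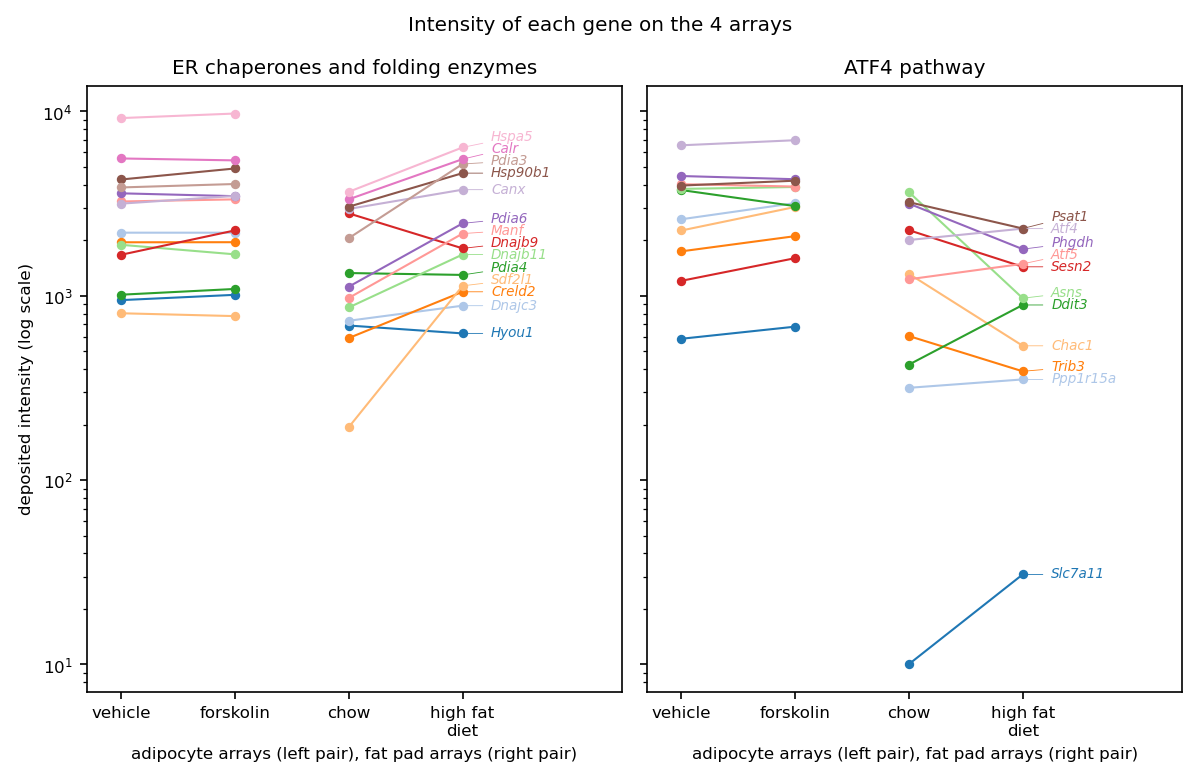
Deposited intensity (log scale) of each chaperone or folding enzyme (left) and each ATF4 pathway gene (right) on the 4 arrays, with lines joining the 2 adipocyte arrays and the 2 fat arrays. Lines between vehicle and forskolin are near level in both panels, and between chow and high fat diet most chaperone lines climb, whereas those of Asns, Chac1, Phgdh, Sesn2, Trib3 and Psat1 descend.

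In the ATF4 pathway, Atf4 and Atf5 were near level between the diets while 5 of the 11 genes were at least 1.5-fold lower. Atf4, at chromosome 15, 80255184 to 80257545, read 6555.4 with vehicle, 6983.9 with forskolin, 2008.2 on normal chow and 2315.3 on the high fat diet. Between the fat arrays this was a 1.15-fold difference, and the authors' bounds in their deposited table, 0.89 and 1.6, span 1. Atf5, a related factor that is also under translational control, was 1.21-fold higher than on chow. The activity of ATF4 depends largely on translation of its RNA, which these arrays do not read.

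Asns had the widest difference of the 11. It encodes asparagine synthetase, the classical amino acid response gene, and read 3801.5 with vehicle, 3893.8 with forskolin, 3653.8 on normal chow and 970.6 on the high fat diet. Its first 3 values lay close together, and the high fat array stood 3.76-fold below chow. The second probe set gave 4.89-fold lower.

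The serine synthesis enzymes were lower as well. Phgdh, the first enzyme of the pathway, read 4465.8, 4290.8, 3163.9 and 1791.4 in the same order, 1.77-fold lower on the high fat diet, and its other probe set gave 2.05. Both Phgdh probe sets can read several transcripts. Psat1, the next enzyme, was 1.39-fold lower, which is inside the 1.5-fold line, with bounds of 1.31 and 1.47 on the lower side in the authors' deposited table.

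Chac1, which breaks down glutathione and is induced through ATF4, read 2261.3 with vehicle, 3033.6 with forskolin, 1316.6 on normal chow and 535.6 on the high fat diet, 2.46-fold lower than on chow. Sesn2, a sestrin that restrains mTORC1 when leucine is short, read 1206.0, 1600.5, 2270.5 and 1436.8 in the same order, 1.58-fold lower, and 1.27-fold lower by its other probe set. Trib3, a pseudokinase that restrains ATF4 and CHOP, read 1742.8, 2107.4, 605 and 389.5, 1.55-fold lower. The other Trib3 probe set gave 1.08-fold lower, and the one used can read several transcripts.

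Ddit3 stood apart from these genes. It encodes CHOP, a factor downstream of ATF4 that is also reached by ATF6, and read 3747.3 with vehicle, 3066.7 with forskolin, 423.4 on normal chow and 891.9 on the high fat diet. Its high fat value was 2.11-fold the chow value, with bounds of 1.71 and 2.71 in the authors' deposited table, while both adipocyte values were above both fat values. Ppp1r15a, the GADD34 subunit that brings the phosphatase to eIF2-alpha, lay below the level filter in fat, at 316.9 and 351.9. Slc7a11, the cystine transporter subunit, read 584.7 and 680.3 in adipocytes, 10.04 on chow, which is under the floor, and 30.79 on the high fat diet, a ratio of at least 1.23.

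Set side by side, the median difference of the chaperones on the high fat diet was 0.76 on the log2 scale (1.695-fold higher) and that of the ATF4 pathway genes was -0.48 (1.39-fold lower). The gap of 1.24 between these medians has no replicate check. Of the 14 chaperones, 13 lay above the ATF4 pathway median, and of the 11 ATF4 pathway genes, 1 lay above the chaperone median, which was Ddit3. The ATF4 median rested on its middle genes: it was 0.02 without the probe sets that can read several transcripts, which took out Phgdh and moved other genes to dimmer probe sets, and the gap was then 0.79. The authors' bounds in their deposited table excluded 1 on the higher side for 11 chaperones and 2 ATF4 pathway genes, and on the lower side for 1 and 6. How often they do so over all genes was not counted, so these counts have no reference. Over all 26 chaperone probe sets compared, 23 were above 0 and 3 below, and over the 17 of the ATF4 pathway, 6 were above and 11 below. Of all genes, 7229 of 12939 were above 0, and 4289 of 7183 at the level filter. Several of these probe sets read the same gene, so they do not add to the gene counts. Where a gene had 2 or more probe sets, their median gap in this comparison was 0.52 on the log2 scale over the brighter probe sets of all genes. Over the 19 of these genes with 2 or more probe sets off the floor it was 0.29, and 18 had all of them on the same side. The exception was Xbp1, and the floored probe set of Hyou1 is not in this count.

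**Figure D3:**
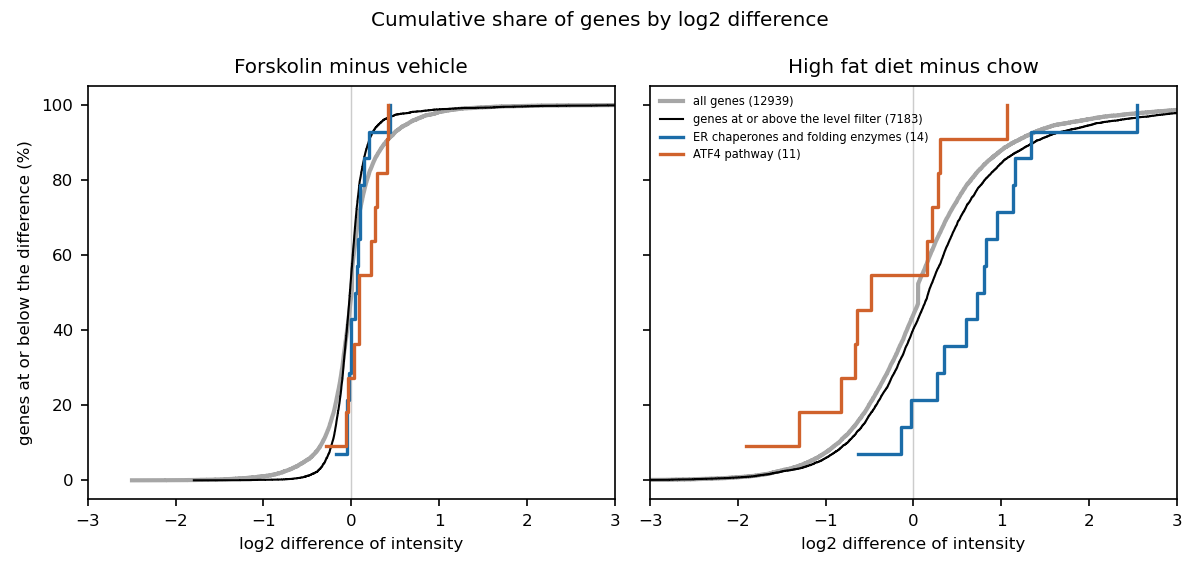
Cumulative share of genes (percent, y axis) at or below each log2 difference of intensity (x axis) for forskolin minus vehicle (left) and high fat diet minus chow (right), for all genes, genes at or above the level filter, the 14 chaperones and the 11 ATF4 pathway genes. The curves lie close together on the left, with medians of 0.05 for chaperones and 0.09 for ATF4 pathway genes, and separate on the right, with medians of 0.76 and -0.48.

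Chaperones with and without the ER stress element overlapped in their differences. The 8 chaperones with either form of the element had a median difference of 0.76 between the diets, from 0.27 to 1.14, and the 4 whose window held neither (Dnajb9, Pdia3, Pdia4 and Sdf2l1) had a median of 0.66, from -0.63 to 2.55. So both the highest and the lowest chaperone lay among the windows with no match. In the ATF4 pathway, the 4 genes with a C/EBP-ATF element had a median of -0.97, from -1.91 to 0.30, and the 7 without had a median of 0.15, from -0.82 to 1.07.

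Cell markers moved with the diet beside these genes. All 10 macrophage markers were higher with the high fat diet by 1.5-fold or more, with a median of 2.73 on the log2 scale. Of 9 plasma cell and B cell markers, 7 were at least 1.5-fold higher and 1 lower, and their summed intensity was 2171 on normal chow and 17676 on the high fat diet. Ighm, the heavy chain of IgM, read 789.7 on normal chow and 9690.6 on the high fat diet, and Jchain, which joins secreted antibody chains, read 391.1 and 4662.9. Igkc was near level, at 181.1 and 204.2, and the 1 lower marker was Irf4, at 106.7 and 59.42. Of the 9 markers, 3 were at the level filter. The Ighm probe set also read 2080.7 with vehicle and 2062.0 with forskolin, above its chow value. All 6 cell cycle markers were at least 3-fold higher, with summed intensities of 611 and 5430. The 7 fibroblast markers summed to 28420 and 37667, and the 7 adipocyte markers to 61374 and 52277, with Cfd and Pparg the 2 that were at least 1.5-fold lower. Plasma cells are known for a large ER, and the part of these cells in the chaperone and ATF4 pathway differences was not tested.

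Forskolin gave no difference of 1.5-fold in any of the 34 genes after 2 hours. Over all 13051 genes compared, 5.77% were higher by that much and 4.25% lower, and for genes at the level filter, which 33 of the 34 reached, these shares were 2.37% and 0.641%. The differences ran from -0.40 on the log2 scale for Eif2ak3 to 0.44 for Dnajb9. At 2-fold the count was 0 in both directions, beside 1.93% and 1.09% of all genes. The chaperone median was 0.05 and the ATF4 pathway median 0.09, beside 0.00 for all genes and -0.02 for genes at the level filter.

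The highest ratios with forskolin were 1.36 for Dnajb9, 1.34 for Chac1 and 1.33 for Sesn2, and the lowest were 1.32-fold lower for Eif2ak3, 1.24-fold lower for Herpud1 and 1.22-fold lower for Ddit3. The other Eif2ak3 probe sets were dim and went the other way, at 1.07-fold and 1.11-fold higher. The authors' bounds in their deposited table excluded 1 for 15 of the 34 genes, 10 on the higher and 5 on the lower side. In the ATF4 pathway they did so for 5 genes on the higher side and for Ddit3 on the lower side. The share of all genes whose bounds exclude 1 was not counted, so these counts have no reference. Those bounds cover single arrays. In this comparison, the median gap between probe sets of a gene was 0.13 on the log2 scale over all genes and 0.16 over these genes. Of the 20 genes with 2 or more probe sets off the floor, 11 had all of them on the same side. The direction differed between scalings for Pdia3, Dnajc3, Manf, Creld2, Eif2s1 and Asns, all of them close to 0. Of the 66 probe sets compared, 1 passed 1.5-fold, a dim one of Canx.

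The authors' deposited table also sorts genes by a predicted cyclic AMP response element, the DNA motif bound by CREB, with or without a TATA box. It places 9 of the 34 genes in the class with both, including Hspa5, Atf4, Chac1 and Ppp1r15a, and their forskolin differences ran from -0.31 to 0.42 with a median of 0.09. The 6 genes in the class without a TATA box ran from -0.23 to 0.20, and the 15 in the remaining class from -0.40 to 0.44. For the other 4, Pdia6, Sel1l, Atf6 and Psat1, no class is given. The share of all genes in each class was not counted, so the class sizes have no reference. In the RefSeq windows, the full element TGACGTCA was found in 1 of the 31 genes, Ppp1r15a, against 2.03% of all genes, and Ppp1r15a read 2602.2 with vehicle and 3185.2 with forskolin, 1.22-fold higher.

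Outside the 34 genes, 137 further genes of the same pathways were listed in 8 groups, of which 132 were measured. With forskolin, 6 of the 132 were higher by 1.5-fold or more and 0 were lower, beside 5.77% and 4.25% of all genes. Ddit4, an inhibitor of mTORC1 that ATF4 and other factors can raise, read 224.6 with vehicle and 2928.6 with forskolin, 13.0-fold higher, and was the one gene past 2-fold. The other 5 are named after their values were seen: Man1b1 at 1.92-fold, Eprs at 1.90-fold, Gdf15 at 1.605-fold, Txndc11 at 1.59-fold and Ppp1r15b at 1.51-fold. Eprs, the glutamyl-prolyl tRNA synthetase, was higher by all 3 of its probe sets, with differences of 0.92, 0.85 and 1.25 on the log2 scale, while the median of all 19 tRNA synthetases measured was -0.02.

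On the high fat diet, 37 of the 132 were higher by 1.5-fold or more and 11 were lower, beside the shares of 22.2% and 17.2% over all genes. The protein entry and sugar-adding machinery of the ER leaned higher. Among the 20 genes of translocation and signal peptide removal, 9 were higher and 0 lower, with a median of 0.49, and the signal peptidase subunits Spcs3 at 2.71-fold and Sec11c at 2.52-fold led them. Sec61b of the translocon was 2.13-fold higher and Spcs2 2.005-fold. Among 12 glycosylation genes, 6 were higher and 1 lower, with a median of 0.54, led by Ddost at 2.45-fold and Rpn2 at 2.01-fold, both subunits of the oligosaccharyltransferase.

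The other ER folding genes had 6 of 18 higher and 1 lower. Wfs1, an ER membrane protein and known target of the response, read 386.7 on normal chow and 2101.6 on the high fat diet, 5.43-fold higher, Ero1b, an oxidase that recharges disulfide isomerases, was 3.32-fold higher, and Dnajb2 was 2.19-fold lower. Of 17 other degradation genes, 4 were higher and 1 lower, with Edem2 at 2.84-fold higher and Derl3, a derlin, 2.04-fold lower.

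The medians of the wider ATF4 lists lay on both sides of 0. Of 18 amino acid supply genes, 2 were higher and 4 lower, with a median of -0.01. Got1, the cytosolic aspartate aminotransferase, was 6.76-fold higher, and Gpt2, an alanine aminotransferase, read 4378.5 on normal chow and 1236.1 on the high fat diet, 3.54-fold lower. Of the 19 tRNA synthetases, 5 were higher and 1 lower, with a median of 0.24, and 15 had differences above 0. Cars was 2.62-fold and Wars 2.32-fold higher. A dim second Cars probe set went the other way, at 73.92 on normal chow and 30.41 on the high fat diet (-1.28 on the log2 scale). Qars was the 1 lower, at -0.65 on the log2 scale by a probe set that can read several transcripts. Its other probe sets gave 0.88, 0.15 and, near the floor, 0.09. Of 16 other ATF4 response genes, 4 were higher and 3 lower, with a median of -0.12: Gdf15, a secreted stress cytokine, was 2.80-fold higher, Gadd45b 2.01-fold higher and Ddit4 2.17-fold lower. Of the 12 genes for eIF2 kinases, phosphatase and exchange factor, 1 was higher, Ppp1cc at 2.17-fold. The medians of these 4 lists lay between -0.12 and 0.24, beside -0.48 for the ATF4 pathway genes above.

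**Figure D4:**
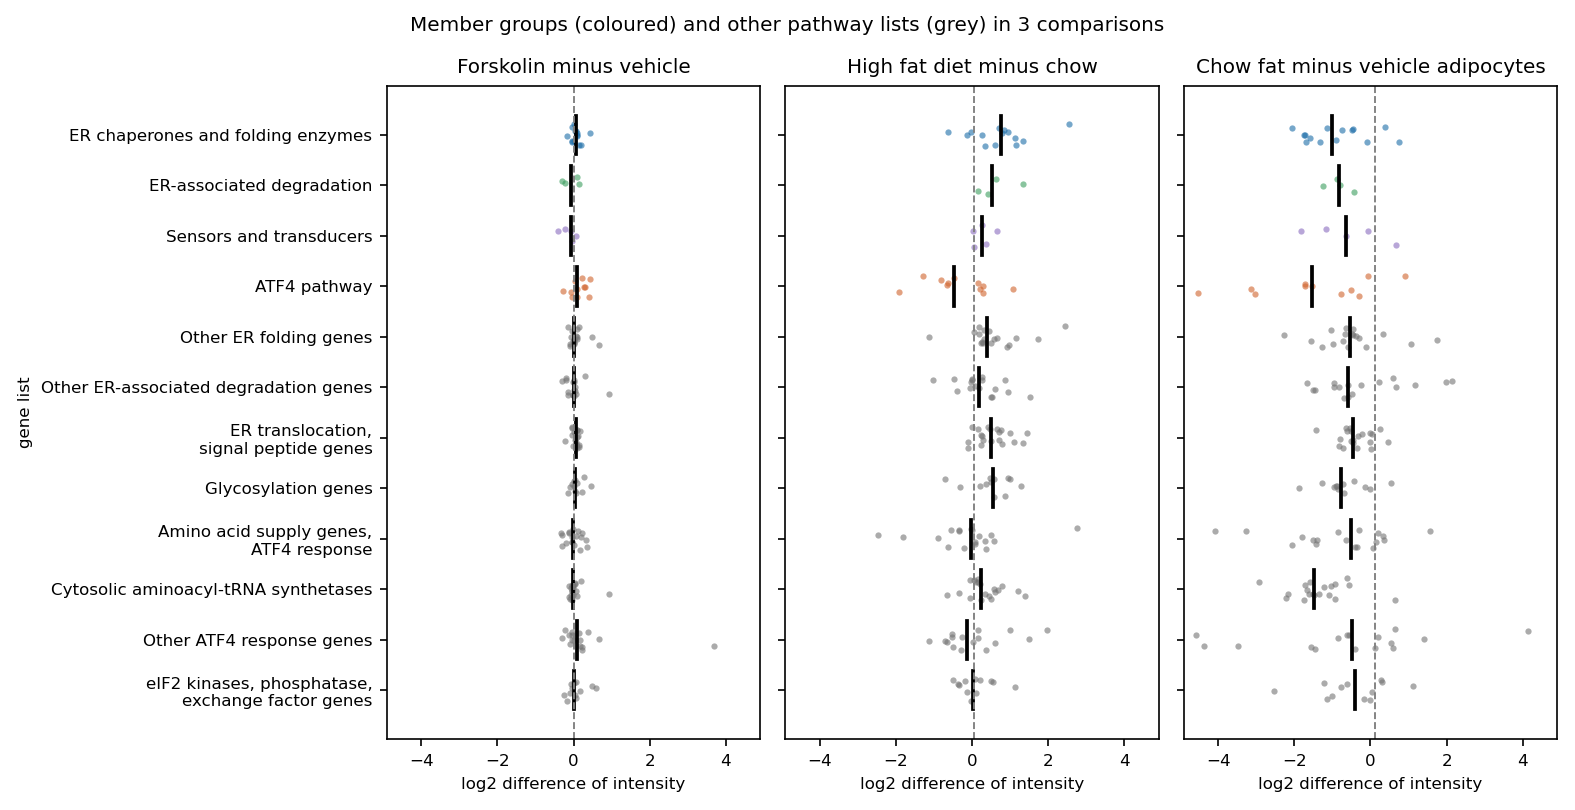
Log2 difference of intensity of each gene (points) in the 4 groups of the 34 genes (coloured) and the 8 other pathway lists (grey), for forskolin minus vehicle, high fat diet minus chow, and chow fat minus vehicle adipocytes. Black bars are list medians and dashed lines the median of all genes; chaperone medians are 0.05, 0.76 and -1.02 and ATF4 pathway medians 0.09, -0.48 and -1.53 in these 3 comparisons.

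Set against cultured adipocytes, chow fat had lower intensities for most of these genes. This comparison uses the chow array of the diet comparison and the vehicle array of the forskolin comparison, so its values are not independent of theirs, and cell makeup, handling and array run cannot be told apart in it. Of the 34 genes, 22 were at least 1.5-fold lower in chow fat and 3 at least 1.5-fold higher, where 22.4% of 12975 genes were lower and 28.2% higher by that rule. At 2-fold, 16 were lower and 0 higher, beside 12.3% and 17.1%. Probe sets of a gene often disagreed here, with a median gap of 1.11 on the log2 scale over the brighter probe sets of all genes. Over the 19 of these genes with 2 or more probe sets off the floor it was 0.91, and 14 had all of them on the same side. Dnajc3, counted as lower, ran from -1.59 to 1.62 between its probe sets, and Edem1 from -1.24 to 0.62.

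The medians were -1.02 on the log2 scale for the chaperones and -1.53 for the ATF4 pathway genes, with 0.13 for all genes and -0.05 for those at the level filter. Slc7a11 read 584.7 in vehicle adipocytes and was at the floor in chow fat, at least 23.3-fold lower. Ddit3 was 8.85-fold lower and Ppp1r15a 8.21-fold lower, and Sdf2l1 at 4.145-fold lower was the lowest chaperone. The 3 genes that were higher in chow fat were Dnajb9 at 1.68-fold, Xbp1 at 1.59-fold and Sesn2 at 1.88-fold. Of the 19 tRNA synthetases, 17 were at least 1.5-fold lower, with a median of -1.47. Summed macrophage and fibroblast markers were higher in chow fat, at 15389 against 5040 and 28420 against 4788. The adipocyte markers summed to 61374 against 47210. Of these 7 markers, 3 were at least 1.5-fold higher in chow fat, Lipe at 7.17-fold, Pparg at 4.70-fold and Cidec at 2.935-fold, and 0 were lower by that rule. The part of cell makeup in these differences was not tested.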

How the data were processed

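The authors deposited one intensity per probe set and array on a linear scale, made per the labels' protocols from biotin-labelled total RNA on Affymetrix arrays; software, background correction and normalization were not given in the sources used here. A second deposited table repeats the intensities (90504 of 90504 cells equal) and adds the authors' signed fold changes with bounds, a score; the level of those bounds was not given in the sources used here. Its gene IDs were matched to RefSeq names (assembly GRCm38.p6); probe sets with several genes (482) or none (769) were not used.

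Intensities below an array's 10th percentile were set to it, and log2 was taken. A gene was its probe set with most values, then highest mean level. Differences were counted at 1.5-fold and 2-fold without any test, since each group held 1 array and its number limits the precision. All 34 genes are reported, with the value on every array where one passed 1.5-fold and for Hspa5, Xbp1, Atf4 and Ddit3; other pathway genes are named at 2-fold and at the level filter, at most 4 a list. Members and lists were chosen with earlier results of these data known. Python 3.11.15, numpy 2.4.6, pandas 2.3.3 and matplotlib 3.10.9 were used.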

Additional observations from a re-analysis of the deposited data

How the results depend on the processing

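None of the 34 genes or group medians past 1.5-fold as reported changed sign under any of the alternatives tried. On the high fat diet, the 13 genes at least 1.5-fold higher became 8 after quantile normalization, and the 6 at least 2-fold higher became 3 with centring on all genes, 2 after quantile normalization and 3 with centring on the genes at the level filter, the last chosen after seeing the data; Sdf2l1 and Edem1 stayed past 2-fold under all of these, while Pdia6, Manf and Ddit3 did not under any. In the same order, the 17 other pathway genes at least 2-fold higher became 11, 10 and 11, and the 11 at least 1.5-fold lower became 18, 21 and 17, or 7 when only genes at the level filter were counted. The 37 at least 1.5-fold higher became 24 with centring and 23 after quantile normalization. Over all genes, the share at least 1.5-fold higher was 22.2% as deposited, 16.3% with centring and 16.2% after quantile normalization. With centring on all genes, quantile normalization and centring on the genes at the level filter, 25.2%, 24.3% and 23.6% of all genes were at least 1.5-fold lower. At least 2-fold higher were 9.25%, 9.36% and 9.69% in that order. For chow fat against vehicle adipocytes, the 3 genes at least 1.5-fold higher became 1 with centring, and the 0 at least 2-fold higher became 1 after quantile normalization. With 3-fold in place of 2-fold, the 6 genes higher and 2 lower on the high fat diet became 1 and 1, and the 17 and 5 other pathway genes became 4 and 2. The gap between chaperone and ATF4 pathway medians on the high fat diet ran from 0.79 (probe sets that can read several transcripts left out) to 1.40 (level filter); for chow fat against vehicle adipocytes it was 0.50, and -0.24 when a gene was the median of its probe sets. Among single genes, Hyou1 was -0.14 between the diets and 0.62 without its shared probe set, which is the other direction and past 1.5-fold, and Trib3 was -0.64 and -0.11. Apart from the settings' own construction, the cause was not tested. No paired analysis was possible because each group held 1 array.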
